A study of Mus musculus with 18 samples.

Results

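The response to CD40 ligand (CD40L) was examined in follicular B cells that lack endophilin A2, the membrane-curvature protein encoded by Sh3gl1. It was read from 6 of the 18 RNA-seq libraries of the series, the 3 libraries of CD40L-treated Sh3gl1-/- follicular B cells (CD40L_KO) against the 3 libraries of untreated Sh3gl1-/- follicular B cells (FO_KO). All mice were C57BL/6, and the cells were flow-sorted mature B cells taken as they were, or after 14 h with CD40L. The labels describe the 3 replicates as biological, from littermates, but give no age or sex. The knockout was constitutive, so the animals lacked endophilin A2 in every tissue and the B cells developed without it. Wild-type (WT) littermate cells in the same 2 states, again 3 libraries each (FO_WT and CD40L_WT), were used to test whether the response differed between genotypes. No library of cells cultured without CD40L was among these groups, so the effect of CD40L and that of culture cannot be told apart.

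CD40 is a receptor of the TNF receptor family through which helper T cells, which display CD40L, license B cells to survive, grow and divide. Its cytoplasmic tail binds TRAF adaptor proteins, which free the transcription factors of the NF-kB family from their inhibitors. Genes known to follow in B cells include adaptor and inhibitor genes of the pathway itself, chemokines, costimulatory ligands, BCL2-related survival factors and the machinery of growth and division. Endophilin A2 acts at the plasma membrane in the uptake of receptors, and the comparison asks what follicular B cells without it still transcribed after CD40L.

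Each FO_KO and CD40L_KO library held between 12415906 and 16325447 counts, and the totals of the 2 groups did not separate (two-sided exact permutation test, p = 0.8). Expression is given as CPM, a gene's counts scaled to the size of the normalised library, and responses as the log2 fold change of CD40L_KO over FO_KO ± SE from a model fitted over 14460 genes. A gene was called when its adjusted p was under 0.05, and of all genes tested 42.4% were called, 2985 higher (20.6%) and 3145 lower (21.7%) after CD40L. The median response over all genes was -0.03, and 51.5% of the called genes changed by less than 2-fold. The shares of counts from mitochondrial genes, 2.33 to 2.62% before and 1.41 to 1.92% after CD40L, did not overlap (exact p = 0.1, the smallest that 3 against 3 libraries allow). The 3 treated libraries lay above all 3 untreated ones for 25.6% of genes and below them for 27.7%. CPM is a share of a library, and the amount of RNA per cell was not measured.

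The knockout itself was checked first. Sh3gl1 (chr17:56016750-56036635 of GRCm38) held 2, 3 and 1 counts in the FO_KO libraries and 20, 22 and 11 counts in the CD40L_KO libraries. The FO_WT libraries held 528, 569 and 447 counts and the CD40L_WT libraries 839, 802 and 929, so every library matched its genotype label. The few reads left in knockout cells were called higher after CD40L (count ratio 8.80, 95% counting interval 3.78 to 25).

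Sorted cells are rarely pure, and the markers of other cell types moved with the treatment. All 10 T cell markers and all 7 NK cell markers tested fell in CD40L_KO, from a summed 215 to 281 TPM (a share of transcripts that is corrected for length) to 36.5 to 41.8 TPM and from 53.4 to 65.0 to 2.08 to 5.03 TPM, respectively. Monocyte and macrophage markers summed to 134 to 287 TPM before and 21.5 to 40.8 TPM after CD40L, with 7 of the 8 tested called lower and Adgre1 called higher. Neutrophil markers summed to between 357 and 1579 TPM before and between 97.5 and 348 TPM after, with 7 of 10 called lower, or 1 without FO_KO replicate 1 and 3 without CD40L_KO replicate 2 or 3. Erythroid and platelet markers, mainly globins, made up between 6890 and 19831 TPM in FO_KO and between 70.3 and 242 TPM in CD40L_KO, with 7 of 9 called lower. Dendritic cell markers lay at 81.7 to 84.4 TPM before and 64.2 to 72.2 TPM after (5 of 8 called lower and 2 higher), and plasma cell markers at 117 to 143 TPM and 18.7 to 24.0 TPM (3 of 4 lower and 1 higher). No marker of these lists was at 0 counts in all 6 libraries. The B cell markers dominated every library, at between 69338 and 74294 TPM before and between 51987 and 53759 TPM after CD40L, with 6 of the 10 tested called lower and 1 higher. Fewer cells of a type and less RNA per cell give the same reading in bulk RNA. For some of the genes that these other cells also express, the fall is given beside these values. In the falls given without such a mention, the part of other cells was not tested either.

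**Figure D1:**
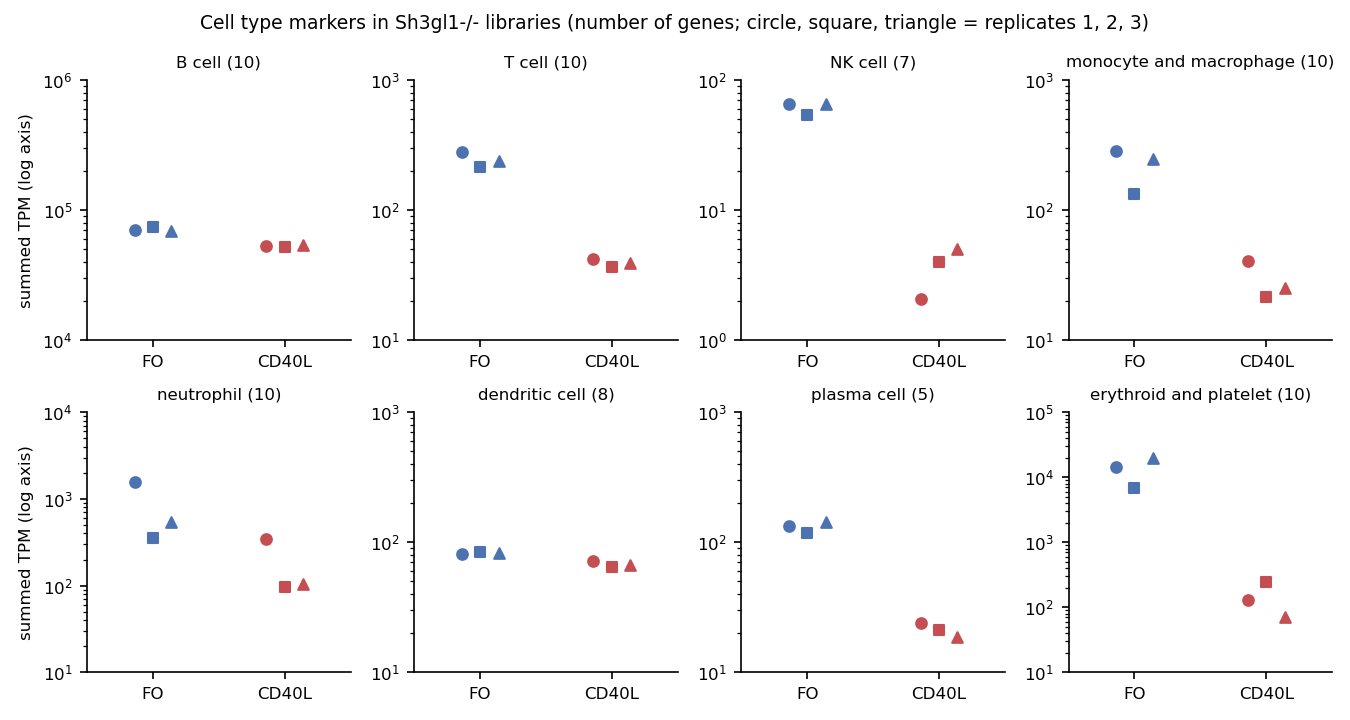
Summed TPM (log axis) of the marker genes of 8 cell types in each untreated (FO, blue) and CD40L-treated (CD40L, red) Sh3gl1-/- library. B cell markers stay at or above 51987 TPM in all 6 libraries, whereas erythroid and platelet markers fall from at least 6890 TPM to at most 242 TPM.

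The 3 genes that mark the response were higher in every treated library. Ccl22 (chr8:94745590-94751699), a chemokine with which activated B cells attract T cells, was almost silent at 0.45, 0.19 and 0.144 CPM in FO_KO and reached 181, 116 and 275 CPM in CD40L_KO (log2 9.49 ± 0.61, adjusted p = 5.2e-08). Traf1 (chr2:34941750-34961772), an NF-kB-induced adaptor of the CD40 complex, stood at 41.2, 38.8 and 37.8 CPM before and 461, 382 and 545 CPM after CD40L, an 11.8-fold rise in the means (log2 3.56 ± 0.17, adjusted p = 3.0e-09). Fas (chr19:34290666-34327772), the death receptor that CD40 is known to induce on B cells, was at 18.1, 13.8 and 12.9 CPM before and at 237, 202 and 234 CPM after (log2 3.91 ± 0.22, adjusted p = 1.3e-08). None of the 3 genes overlapped between the groups.

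**Figure D2:**
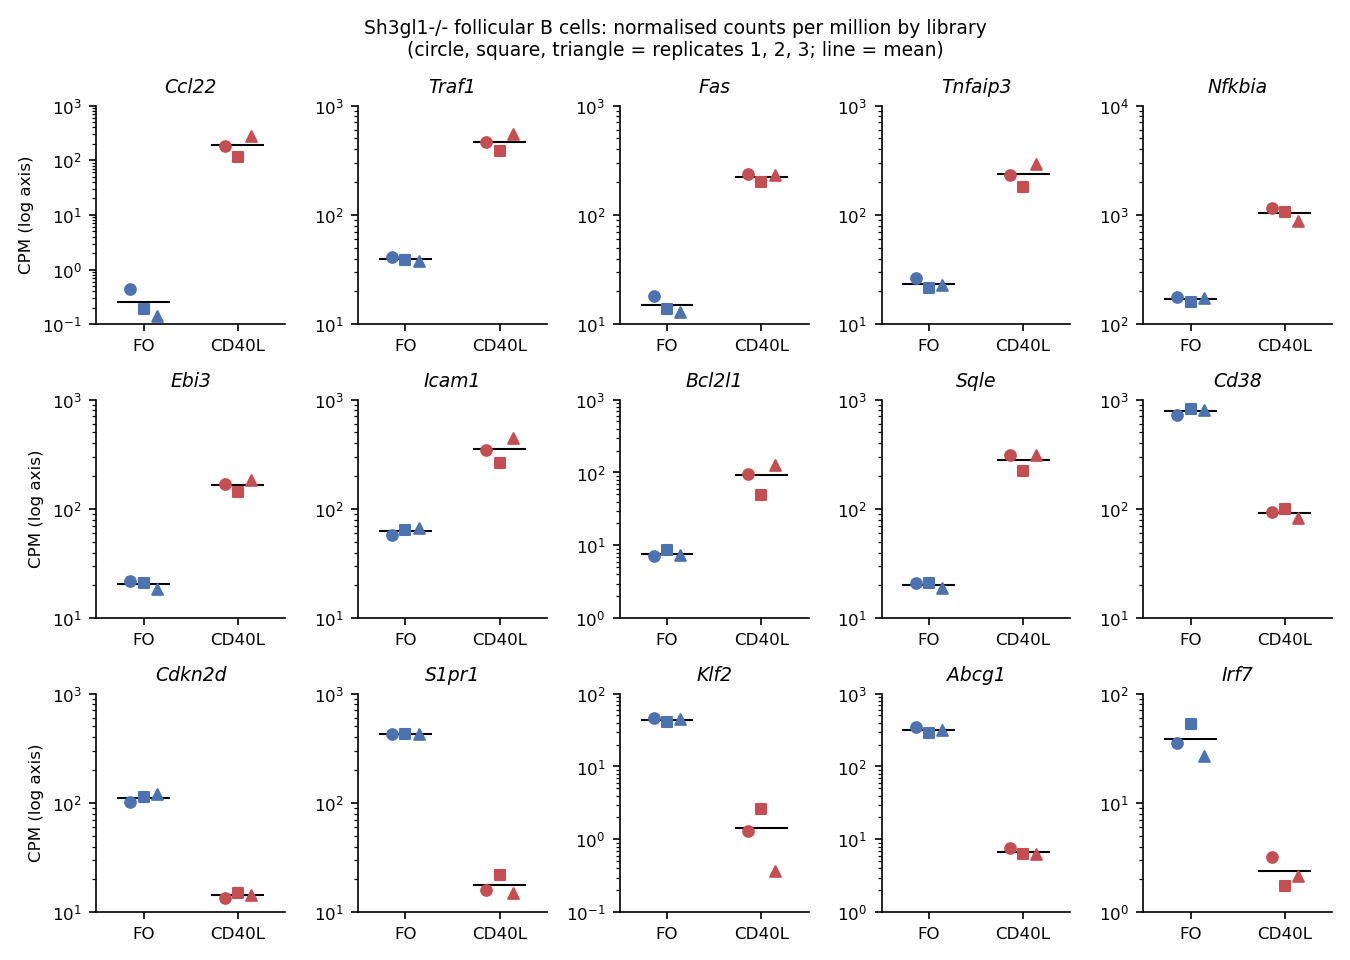
CPM (log axis) of 15 genes in each untreated (FO, blue) and CD40L-treated (CD40L, red) Sh3gl1-/- library, with the mean of 3 replicates as a line. The first 9 genes, from Ccl22 to Sqle, lie higher and the last 6, from Cd38 to Irf7, lie lower in all 3 treated libraries, with no overlap between groups.

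Of 14 genes for the CD40 receptor and its TRAF adaptors, 3 were called higher (21.4%) and 2 lower (14.3%), beside 20.6% and 21.7% of all genes, with a median of 0.20. The number called higher was 5 without FO_KO replicate 2 or CD40L_KO replicate 2. Cd40 itself stood at 175, 166 and 191 CPM before and 398, 350 and 397 CPM after (log2 1.11 ± 0.11, adjusted p = 2.3e-06). Tank, a TRAF-binding regulator, rose by 0.67 ± 0.10. Traf5 went the other way, from 98.3, 98.9 and 99.2 CPM to 33.4, 23.9 and 30.9 CPM (log2 -1.75 ± 0.14, adjusted p = 4.0e-07). Map3k14, the kinase NIK of the alternative NF-kB pathway, was also lower (log2 -0.76 ± 0.20, adjusted p = 0.0080). Traf3, which holds NIK in check, did not pass the test (log2 0.29 ± 0.16, adjusted p = 0.17), and neither did Birc3 (log2 0.14 ± 0.10, adjusted p = 0.26).

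Within the NF-kB list, the genes with the largest responses encoded inhibitors of the pathway. Of 18 members tested, 8 were called higher (44.4%) and 3 lower (16.7%), beside 20.6% and 21.7% of all genes, and the median was 0.29. Tnfaip3, the ubiquitin-editing enzyme A20 that shuts NF-kB signalling down, rose from 26.3, 21.6 and 22.8 CPM to 230, 180 and 295 CPM (log2 3.32 ± 0.23, adjusted p = 1.0e-07). Nfkbia, which encodes the inhibitor IkBα, stood at 179, 159 and 175 CPM before and at 1152, 1063 and 888 CPM after (log2 2.59 ± 0.22, adjusted p = 5.4e-07). The 2 further inhibitors Nfkbie and Nfkbib rose by 1.86 ± 0.14 and 1.72 ± 0.21 on the log2 scale. The DNA-binding subunits changed less. Nfkb2 rose by 1.41 ± 0.18, Relb by 0.69 ± 0.18 and Nfkb1 by 0.41 ± 0.09, while Rel, the subunit c-Rel, was at 232, 257 and 239 CPM before and 267, 261 and 298 CPM after (log2 0.18 ± 0.10, adjusted p = 0.17). The catalytic kinases Chuk and Ikbkb were lower, at log2 -0.61 ± 0.13 and -0.49 ± 0.15, and Ikbkb lost its call without FO_KO replicate 2 (log2 -0.35) or CD40L_KO replicate 1 (-0.44) or 2 (-0.38).

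The promoters of Tnfaip3, Nfkbia and Nfkbie hold letters that match the NF-kB consensus, while none was found for Nfkbib. RefSeq promoters of build GRCm38.p6 were matched by symbol for 9615 of 14458 tested gene symbols, and the 250 bases before each start and the 50 after it were searched on both strands for the NF-kB consensus, a motif of 10 letters. It was found in 64.3% of the NF-kB list promoters (9 of 14), against 5.98% of the promoters of all genes tested. Of these 9 genes 4 were called higher (Nfkb2, Nfkbia, Nfkbie and Tnfaip3) and 5 were not (Bcl3, Cyld, Nfkbid, Rel and Tnip1), so that within the list a match was also common in genes without a called rise. Tnip1 lay near the threshold (log2 0.37, adjusted p = 0.058) and passed without CD40L_KO replicate 2 (log2 0.52, adjusted p = 0.0093). Of the promoters of all genes called higher 6.47% held it, and of those called lower 6.50%. The sequences of 3 inhibitor genes are shown because they carry the largest responses in this list, with the matches in capitals. The 250 bases before the start are printed 5′ to 3′ on the gene's strand, at chr12:55492648-55492897 (minus strand) for Nfkbia, chr10:19015411-19015660 (minus strand) for Tnfaip3 and chr17:45555450-45555699 (plus strand) for Nfkbie.
Nfkbia: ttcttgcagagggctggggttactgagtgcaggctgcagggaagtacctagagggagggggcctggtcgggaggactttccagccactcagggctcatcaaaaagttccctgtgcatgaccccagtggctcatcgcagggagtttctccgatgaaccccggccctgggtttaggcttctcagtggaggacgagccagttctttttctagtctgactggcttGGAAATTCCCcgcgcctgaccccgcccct
Tnfaip3: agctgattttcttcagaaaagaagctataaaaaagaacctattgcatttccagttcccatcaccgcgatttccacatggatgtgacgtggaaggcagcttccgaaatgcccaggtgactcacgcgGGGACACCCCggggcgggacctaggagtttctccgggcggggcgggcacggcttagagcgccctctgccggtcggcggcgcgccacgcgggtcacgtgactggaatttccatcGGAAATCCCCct
Nfkbie: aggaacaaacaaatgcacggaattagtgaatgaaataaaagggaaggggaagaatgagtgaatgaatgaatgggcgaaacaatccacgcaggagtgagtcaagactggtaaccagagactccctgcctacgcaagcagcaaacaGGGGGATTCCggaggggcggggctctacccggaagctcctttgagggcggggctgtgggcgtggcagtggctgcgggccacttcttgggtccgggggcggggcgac
Nfkbia and Nfkbie hold 1 match each, from -29 to -20 and from -106 to -97 relative to the start, and Tnfaip3 holds 2, from -125 to -116 and from -12 to -3. A second RefSeq start of Tnfaip3 had none in its window, nor had the promoters of Ccl22, Traf1, Fas and Icam1. A match describes the letters only, since no binding was measured.

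Of 15 chemokines and cytokines tested, 5 were called higher (33.3%, against 20.6% of all genes) and 3 lower (20.0%, against 21.7%), with a median of -0.21. Besides Ccl22, Ebi3, the shared subunit of IL-27 and IL-35, rose from 22.0, 21 and 18.7 CPM to 169, 142 and 184 CPM (log2 3.0 ± 0.20, adjusted p = 6.7e-08). Tnf rose by 0.55 ± 0.13. Il10 and Cxcl10 were called higher at very low levels. Il10 had 0, 2 and 0 counts before and 6, 18 and 10 after (count ratio 16.9, 95% counting interval 4.34 to 145), and Cxcl10 had 1, 0 and 3 counts before and 7, 14 and 14 after. The adjusted p of Cxcl10 was between 0.052 and 0.079 without FO_KO replicate 1 or 2 or CD40L_KO replicate 2 or 3. Il16, a T cell attractant, was at 295, 345 and 287 CPM before and 110, 109 and 135 CPM after (log2 -1.39 ± 0.14, adjusted p = 3.8e-06). Ccl5 fell from 60.1, 38.3 and 57.4 CPM to 11.7, 13.1 and 11 CPM (log2 -2.12 ± 0.25). Ccl5 is also a product of T and NK cells, whose markers fell in the same libraries, and their part in its fall was not tested.

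Costimulatory and adhesion molecules, which hold the B cell and the T cell together and tune their exchange, changed in both directions. Of 19 tested, 10 were called higher (52.6%) and 6 lower (31.6%), beside 20.6% and 21.7% of all genes, with a median of 0.62. Icam1, the ligand of the integrin LFA-1, stood at 57.3, 64.8 and 67.5 CPM before and 347, 262 and 448 CPM after (log2 2.48 ± 0.20, adjusted p = 4.7e-07). Cd83, which stabilises MHC class II at the surface, was abundant already, at 939, 929 and 884 CPM, and reached 2962, 2205 and 2673 CPM (log2 1.51 ± 0.12). Slamf7 rose by 1.63 ± 0.16 and Cd86 by 0.68 ± 0.15. The TNF-family ligands of the list were among the lowest genes before CD40L. Tnfsf9 (4-1BBL) rose from 1.95, 0.824 and 0.862 CPM to 13.0, 8.03 and 8.37 CPM. Tnfsf4 (OX40L) had no count in any FO_KO library and 45, 37 and 92 counts in CD40L_KO, at least 18.6-fold higher when 3 counts per library are taken as the floor. Cd70 likewise had 0 counts before and 8, 24 and 21 after, at least 5.97-fold higher. Among the falls, Icam2 went from 114, 118 and 112 CPM to 23.6, 25.4 and 28.9 CPM (log2 -2.14 ± 0.11, adjusted p = 9.2e-09). Both ligands of the inhibitory receptor PD-1 were lower, Pdcd1lg2 by log2 -1.69 ± 0.16 and Cd274 by -1.25 ± 0.20. Cd69, an early activation marker, was also lower (log2 -0.85 ± 0.12, adjusted p = 9.3e-05), as were Cd200 and Icosl.

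Of 17 receptors of the TNF and cytokine families tested, 4 rose and 4 fell (23.5% each), shares near the 20.6% and 21.7% of all genes, and the members are given as single genes. Il2ra, the high-affinity IL-2 receptor chain, rose from 7.64, 7.16 and 4.09 CPM to 47.7, 31.4 and 36.4 CPM (log2 2.61 ± 0.24), Il9r from 105, 75.2 and 94.5 CPM to 247, 259 and 348 CPM (log2 1.63 ± 0.15), and Ifnar1 by 0.51 (adjusted p = 0.048, and between 0.059 and 0.17 without any 1 library other than FO_KO replicate 2). The receptor of the survival factor BAFF, Tnfrsf13c, was at log2 -0.26 ± 0.15 (adjusted p = 0.17). Il10ra fell by 1.21 ± 0.16 and Il4ra by 0.60 ± 0.17, which was log2 -0.52 without CD40L_KO replicate 1 and -0.44 without CD40L_KO replicate 2, both with the call lost. The number called lower was between 1 and 2 when any one of FO_KO replicate 1 or CD40L_KO replicates 1, 2 and 3 was left out.

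Survival genes changed in both directions. Of 19 members of the BCL2 family and the Fas pathway tested, 8 were called higher (42.1%) and 5 lower (26.3%). The shares over all genes were 20.6% and 21.7%. Bcl2l1, which encodes BCL-XL, was at 7.19, 8.56 and 7.32 CPM before and at 95.7, 49.5 and 128 CPM after (log2 3.57 ± 0.39, adjusted p = 6.9e-06). Bcl2a1d and Bcl2a1b, which encode A1 proteins, rose by 3.72 ± 0.17 and 2.84 ± 0.13. These A1 genes are near-identical copies between which reads can be divided, so each value is uncertain. A further copy, Bcl2a1a, had 27, 12 and 24 counts before and 8, 13 and 10 after, and was not called (log2 -1.03 ± 0.51, adjusted p = 0.12). Bid, which links death receptors to mitochondria, rose from 121, 127 and 118 CPM to 627, 489 and 686 CPM (log2 2.30 ± 0.14), and Cflar, which blocks caspase-8 at Fas, rose by 1.01 ± 0.11. Bbc3, the death inducer PUMA, was called higher from near zero (log2 3.28 ± 0.76). Bcl2 itself fell from 174, 168 and 170 CPM to 68.8, 81.9 and 84.5 CPM (log2 -1.12 ± 0.12, adjusted p = 4.8e-06). The pro-death members Bcl2l11 (BIM) and Bmf fell by 1.13 ± 0.23 and 1.47 ± 0.26, and Mcl1 by 0.48 ± 0.15, a call lost without FO_KO replicate 3 (log2 -0.44) or CD40L_KO replicate 1 (-0.46) or 3 (-0.35).

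The receptors that carry a resting B cell through lymph and blood were lower. Of 17 homing and positioning receptors tested, 9 were called lower (52.9%) and 3 higher (17.6%), beside 21.7% and 20.6% of all genes. The median was -0.94. S1pr1, the receptor that lets lymphocytes leave lymphoid organs, was at 428, 427 and 430 CPM before and 16.1, 22.1 and 15.1 CPM after (log2 -4.60 ± 0.20, adjusted p = 1.5e-09). Itgb7 fell by 4.22 ± 0.37 and S1pr4 by 2.33 ± 0.18. Ccr7, which draws B cells to the T cell zone, was at 321, 351 and 280 CPM before and 166, 158 and 172 CPM after (log2 -0.94 ± 0.13). Gpr183 (EBI2), which guides activated B cells to the follicle's edge, rose from 193, 195 and 210 CPM to 451, 388 and 415 CPM (log2 1.07 ± 0.09), and Ccr6 rose by 0.79 ± 0.16. Cxcr5, the follicle-homing receptor, did not pass (log2 0.28 ± 0.17, adjusted p = 0.20), but did without CD40L_KO replicate 2 (log2 0.44, adjusted p = 0.036). S1pr1, Itgb7 and Cxcr3 are also T and NK cell genes, the markers of these cells fell in the same libraries, and their part was not tested. In the list of the antigen receptor and its co-receptors 13 of 27 members fell (48.1%) and 7 rose (25.9%). The shares over all genes were 21.7% and 20.6%. Cd38 showed its largest fall, from 721, 815 and 808 CPM to 94.6, 100 and 83.3 CPM (log2 -3.08 ± 0.13), and the receptor subunits Cd79b and Cd79a fell by 1.12 ± 0.08 and 0.52 ± 0.07. Fcer2a (CD23) rose from 1309, 1500 and 1195 CPM to 3549, 2652 and 4033 CPM (log2 1.35 ± 0.16). The number called higher in this list was between 3 and 4 without FO_KO replicate 1, FO_KO replicate 3 or CD40L_KO replicate 3.

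Genes of the resting state fell in most members. Of 22 quiescence factors tested, 17 were called lower (77.3%) and 1 higher (4.55%), beside 21.7% and 20.6% of all genes. The median was -0.92. Klf2, which maintains lymphocyte quiescence and S1pr1, was at 46.1, 40.4 and 44.1 CPM before and 1.31, 2.62 and 0.372 CPM after (log2 -4.97 ± 0.45, adjusted p = 1.2e-06). The cell cycle inhibitor Cdkn2d fell from 102, 114 and 120 CPM to 13.6, 15.2 and 14.4 CPM (log2 -2.95 ± 0.11, adjusted p = 3.8e-10). Txnip, a brake on glucose uptake, fell by 2.02 ± 0.12, Foxo1 by 1.67 ± 0.19 and Btg1 by 0.97 ± 0.12. T and NK cells express Klf2, Foxo1, Txnip, Btg1 and Ets1 as well, all 10 T cell and all 7 NK cell markers fell in the same libraries, and their part was not tested. The only member called higher, Tob2 at log2 0.46, lost its call without FO_KO replicate 1 or 3 or CD40L_KO replicate 1 or 2 (log2 between 0.38 and 0.45). Among 30 B cell transcription factors, 7 rose (23.3%) and 10 fell (33.3%), beside 20.6% and 21.7% of all genes. Irf4, which is needed for plasma cell and germinal centre fates, rose from 59.7, 74.1 and 53.6 CPM to 215, 169 and 211 CPM (log2 1.67 ± 0.14), and Bhlhe40 rose by 2.59 ± 0.22. Prdm1, the plasma cell regulator, was called higher but stayed at 2.14, 2.39 and 1.67 CPM (log2 1.81 ± 0.54, adjusted p = 0.015, and 0.053 without FO_KO replicate 1). Foxp1 fell by 1.09 ± 0.08, Ets1 by 1.61 ± 0.28 and Ebf1 by 0.90 ± 0.13, whereas Pax5, the factor of B cell identity, was at log2 -0.18 ± 0.08 (adjusted p = 0.062).

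**Figure D3:**
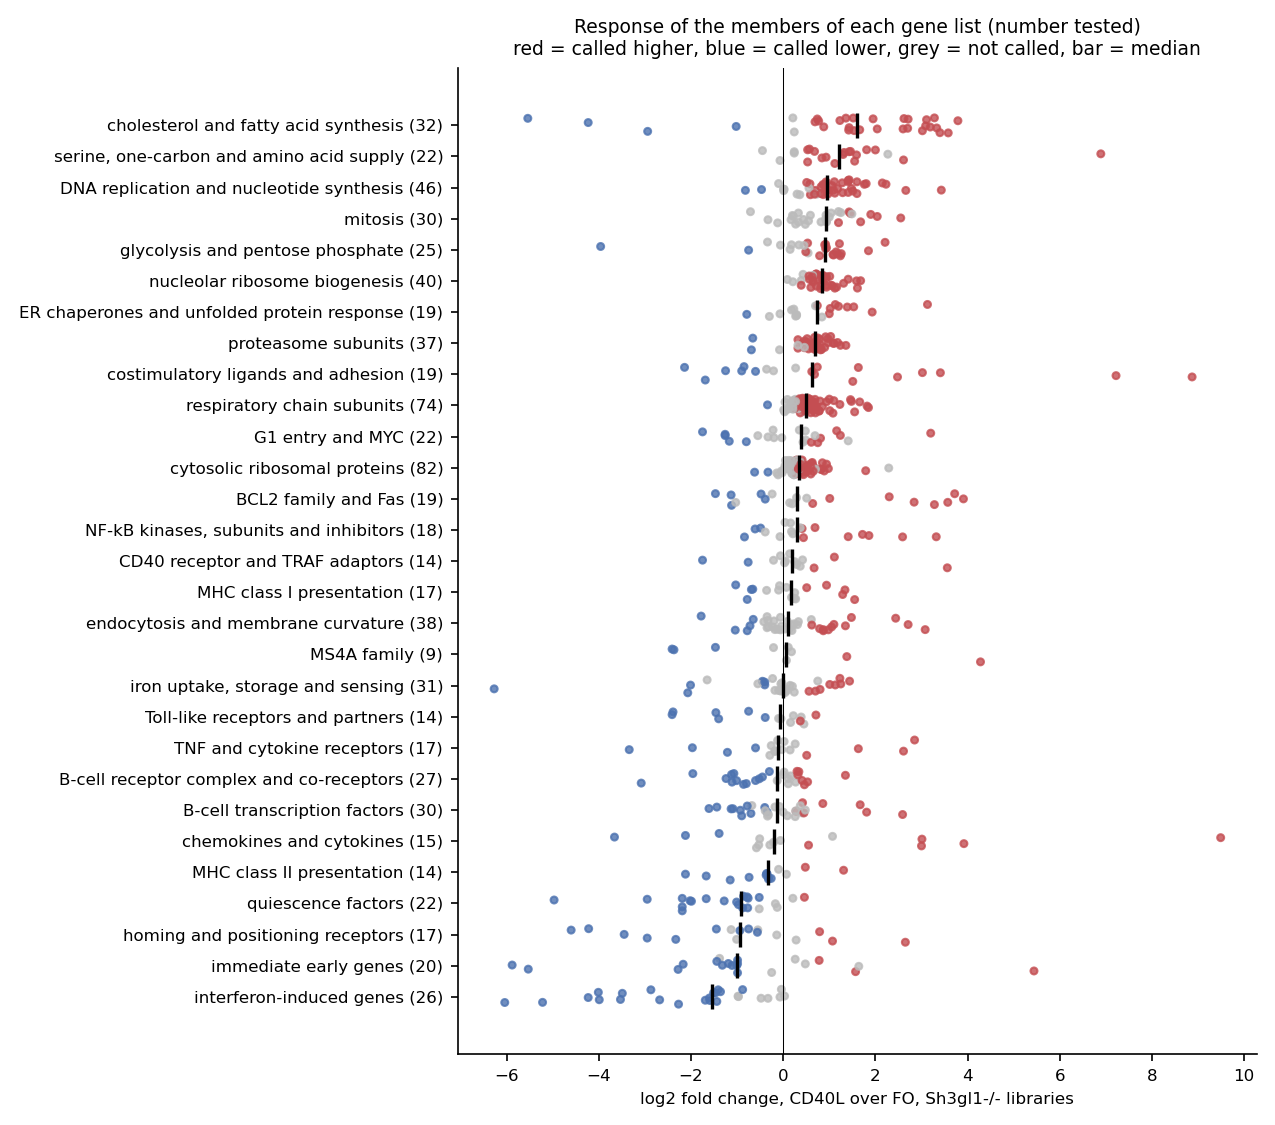
Log2 response of every tested member of 29 gene lists, ordered by the list median (black bar), in Sh3gl1-/- cells. Medians run from -1.55 for interferon-induced genes to 1.6 for cholesterol and fatty acid synthesis; the fitted values of Tnfsf4, Cd70 and Chac1, which had 0 counts before CD40L, and of Ifi44 and Fosb, which had 0 after, are no measure of size.

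Sterol synthesis had the highest median response of the 29 lists. Of 32 genes for cholesterol and fatty acid synthesis and its regulation, 26 were called higher (81.2%) and 4 lower (12.5%). The shares over all genes were 20.6% and 21.7%. The list median was 1.6, against -0.03 for all genes. Sqle, squalene epoxidase, stood at 21.1, 21 and 18.9 CPM before and 313, 220 and 312 CPM after (log2 3.79 ± 0.27, adjusted p = 1.4e-07). Idi1, Mvd and Fdps, enzymes of the isoprenoid steps, rose by 3.58 ± 0.23, 3.4 ± 0.24 and 3.33 ± 0.20. Srebf2, the transcription factor that drives the pathway, rose from 44.4, 47.3 and 46.6 CPM to 109, 146 and 149 CPM (log2 1.54 ± 0.15). Fasn, fatty acid synthase, rose by 1.66 ± 0.13. The 4 members that fell were Abcg1, Mylip, Abca1 and Scd1. Abcg1 and Abca1 export cholesterol, Mylip is a ubiquitin ligase that limits its uptake, and these 3 are known targets of the sterol-sensing LXR receptors. Abcg1 (chr17:31057675-31117988) went from 344, 285 and 317 CPM to 7.65, 6.28 and 6.38 CPM (log2 -5.54 ± 0.19, adjusted p = 2.7e-10). Mylip fell by 4.23 ± 0.16, Abca1 by 2.94 ± 0.54 and Scd1, a desaturase, by 1.02 ± 0.14.

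A textbook sterol response element, TCACNCCAC read on both strands, was searched for in the same promoter windows. It was present in 1.33% of the promoters of all genes tested and in 1 of the 22 promoters available for this list, that of Hmgcs1, an early enzyme of the pathway. Hmgcs1 was at 45.9, 50.9 and 49.8 CPM before and 541, 372 and 510 CPM after (log2 3.28 ± 0.26, adjusted p = 3.4e-07). Its promoter at chr13:119690101-119690350 (plus strand) is shown as the list's only example, with the match from -137 to -129 in capitals.
Hmgcs1: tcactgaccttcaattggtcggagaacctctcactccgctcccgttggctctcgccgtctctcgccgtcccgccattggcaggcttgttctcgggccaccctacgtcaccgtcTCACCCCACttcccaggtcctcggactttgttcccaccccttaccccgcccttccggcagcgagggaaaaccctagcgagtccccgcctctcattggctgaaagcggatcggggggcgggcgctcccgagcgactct

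Genes of DNA replication and nucleotide synthesis and those of mitosis had like medians. Of 46 replication genes, 36 were called higher (78.3%) and 2 lower (4.35%), beside 20.6% and 21.7% of all genes. Their median was 0.96. Cdc6, which loads the replicative helicase, was at 2.10, 2.16 and 1.72 CPM before and 21.1, 8.51 and 35.0 CPM after (log2 3.43 ± 0.63, adjusted p = 6.4e-04). The helicase subunit Mcm3 was at 52.5, 53.8 and 53.5 CPM before and 156, 83.3 and 216 CPM after (log2 1.51 ± 0.38). Rrm2, which makes deoxynucleotides, rose by 1.80 ± 0.39. Cdt1 and Rfc1 were the 2 members called lower, and at most 1 of the pair was called without any single library other than FO_KO replicate 1. Of 30 mitotic genes 7 were called higher (23.3%, near the 20.6% of all genes) and 0 lower (median 0.93). The number called higher varied with the libraries used. Bub1, a spindle checkpoint kinase, rose by 2.55 ± 0.62 and Top2a from 22.6, 23.6 and 15.8 CPM to 65.8, 42.5 and 90.7 CPM (log2 1.68 ± 0.37). Cdk1 stood at 9.58, 4.69 and 15.2 CPM after CD40L and did not pass (log2 1.20 ± 0.48, adjusted p = 0.058). CD40L_KO replicate 2 was the lowest of the 3 treated libraries for Cdc6, Mcm3, Top2a and Cdk1. Without it Cdk1 passed (log2 1.54, adjusted p = 0.015) and the mitotic count was 13 of 30, without either of the other treated libraries it was 4, and with the 6 knockout libraries fitted alone it was 15.

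Of 22 genes for G1 entry and MYC, 6 rose (27.3%) and 5 fell (22.7%), near the 20.6% and 21.7% of all genes. Cdkn1a, the inhibitor p21, rose from 0.974, 1.14 and 0.646 CPM to 8.96, 8.27 and 8.43 CPM (log2 3.2 ± 0.44), Ccnd2 (cyclin D2) by 1.16 ± 0.25, and its partners Cdk4 and Cdk6 by 0.75 ± 0.16 and 0.81 ± 0.12. Ccnd3 fell by 1.17 ± 0.15. Myc, the main driver of growth, was at 137, 150 and 132 CPM before and 221, 147 and 222 CPM after, and did not pass (log2 0.49 ± 0.23, adjusted p = 0.099). Its values overlapped through CD40L_KO replicate 2, without which Myc passed (log2 0.68, adjusted p = 0.028). The MYC antagonists Mxi1 and Mxd1 were lower by log2 -1.75 ± 0.35 and -1.26 ± 0.23.

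Genes for ribosomes, proteasomes and amino acid supply were called higher more often than lower. Of all genes, 20.6% were called higher and 21.7% lower. In nucleolar ribosome biogenesis 34 of 40 genes were called higher (85%) and 0 lower (median 0.84). Pno1, a small-subunit assembly factor, led with log2 1.68 ± 0.14, and Ncl, nucleolin, went from 529, 553 and 558 CPM to 1301, 972 and 1286 CPM (log2 1.12 ± 0.17). Of 82 cytosolic ribosomal protein genes 45 rose (54.9%) and 2 fell (2.44%), with a median of 0.34. Of the 2 that fell, 1 lost its call without FO_KO replicate 3 or CD40L_KO replicate 3. Of 37 proteasome subunits 32 rose (86.5%) and 2 fell (5.41%). The 2 that fell, Psmb9 and Psmb10 (log2 -0.69 ± 0.12 and -0.66 ± 0.09), are catalytic subunits of the immunoproteasome. Among 19 genes for ER chaperones and the unfolded protein response 9 rose (47.4%) and 1 fell (5.26%), beside 20.6% and 21.7% of all genes. Sdf2l1 was at log2 3.13 ± 0.37, Manf at 1.93 ± 0.19 and Hspa5 (BiP) at 1.20 ± 0.12. Of 22 genes for serine, one-carbon and amino acid supply, 17 rose (77.3%) and 0 fell (median 1.21). They included Mthfd2, the mitochondrial folate enzyme (17.1, 15.0 and 13.8 CPM before, log2 2.0 ± 0.17), Asns, asparagine synthetase (log2 2.61 ± 0.39), and Phgdh, the first enzyme of serine synthesis (log2 1.3 ± 0.17). Chac1 had 0 counts before and 17, 19 and 5 after, at least 4.75-fold higher.

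Genes of energy metabolism encoded in the nucleus rose in most members. Of 13 messenger RNAs encoded by mitochondrial DNA, 5 were called lower and 0 higher. Of 74 respiratory chain subunits encoded in the nucleus, 55 rose (74.3%) and 1, Uqcrh, fell (1.35%), with a median of 0.50. The shares over all genes were 20.6% and 21.7%. The leading subunits were Atp5d (log2 1.85 ± 0.30), Ndufa10 (1.82 ± 0.19) and Cox5b (1.66 ± 0.24). The call on Uqcrh was lost without FO_KO replicate 1 or 3 or CD40L_KO replicate 2 or 3 (log2 between -0.33 and -0.24). In glycolysis and the pentose phosphate pathway 16 of 25 genes rose (64%) and 2 fell (8%), with a median of 0.90. Pgam1 went from 61.0, 55.3 and 60.1 CPM to 244, 174 and 218 CPM (log2 1.85 ± 0.20), Aldoa rose by 1.22 ± 0.08 and Pkm by 1.18 ± 0.25. The glucose transporter Slc2a1 was at log2 -0.34 ± 0.17 (adjusted p = 0.13), and at -0.49 without CD40L_KO replicate 3 (adjusted p = 0.044).

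Of 31 genes for iron uptake, storage and sensing, 8 were called higher (25.8%) and 6 lower (19.4%), near the 20.6% and 21.7% of all genes, and the median was -0.01. The ferritin genes rose, Fth1 from 127, 93.6 and 124 CPM to 406, 345 and 184 CPM (log2 1.44 ± 0.37, adjusted p = 0.0067) and Ftl1 from 3138, 2884 and 3111 CPM to 5322, 5689 and 4872 CPM (log2 0.80 ± 0.10). The zinc and iron importer Slc39a14 rose by 1.25 ± 0.28, and Aco1, the iron-sensing protein IRP1, by 1.23 ± 0.30, while the second sensor Ireb2 fell by 0.40 ± 0.10. Tfrc, the transferrin receptor, was at 43.7, 58.2 and 44.7 CPM before and 97.8, 46.9 and 102.5 CPM after, and missed the threshold (log2 0.75 ± 0.30, adjusted p = 0.054). The groups overlapped through CD40L_KO replicate 2, and Tfrc passed without it (log2 1.05, adjusted p = 0.0048) or without FO_KO replicate 2 (0.94, adjusted p = 0.047). Slc40a1 (ferroportin, the iron exporter) had 283, 251 and 180 counts before and 9, 0 and 0 after, and Hmox1, heme oxygenase, fell by 2.07 ± 0.42. Both are typical of macrophages that recycle red cells, and Slc25a37 (log2 -2.01 ± 0.20) of erythroid cells. The markers of these cells fell in the same libraries, and their part was not tested.

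Endocytic genes, the group to which Sh3gl1 belongs, were called in both directions. Of 38 tested, 12 rose (31.6%), Sh3gl1 among them, and 5 fell (13.2%), beside 20.6% and 21.7% of all genes. The median was 0.11. Trip10 (CIP4) rose from 2.40, 1.84 and 1.29 CPM to 10.9, 15.2 and 10.3 CPM (log2 2.71 ± 0.47), and Fnbp1, its relative with the same kind of membrane-bending F-BAR domain, from 212, 209 and 197 CPM to 519, 574 and 627 CPM (log2 1.48 ± 0.09). Bin1, which carries a BAR domain as endophilin does, rose by 1.05 ± 0.16. The scaffold Itsn1 rose by 2.44 ± 0.18 whereas Itsn2 fell by 1.04 ± 0.12, and Hip1r, a clathrin and actin linker, fell by 1.78 ± 0.16. The clathrin heavy chain Cltc (log2 0.19 ± 0.14, adjusted p = 0.29) and dynamin 2, Dnm2 (log2 -0.18 ± 0.16, adjusted p = 0.40), did not pass.

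Antigen presentation genes of class II were mostly lower. Of 14 tested, 10 fell (71.4%) and 2 rose (14.3%), beside 21.7% and 20.6% of all genes. The median was -0.34. H2-Ob and H2-Oa, which form the peptide-loading inhibitor H2-O, went from 1486, 1545 and 1519 CPM to 459, 525 and 446 CPM (log2 -1.67 ± 0.13) and from 676, 608 and 727 CPM to 309, 308 and 291 CPM (log2 -1.15 ± 0.10). March1, which removes class II molecules from the surface, fell by 2.12 ± 0.13. The class II chains changed less, with H2-Ab1 at log2 0.48 ± 0.13 and H2-Eb1 at -0.32 ± 0.07, and their invariant chain Cd74 at -0.37 ± 0.05. In the class I pathway 5 of 17 genes rose (29.4%) and 4 fell (23.5%), shares near the 20.6% and 21.7% of all genes. Psme2 (log2 1.55 ± 0.09) and calreticulin, Calr (1.34 ± 0.08), led the rises, and Nlrc5 (-1.03 ± 0.13) was among the falls.

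The interferon-induced list had the lowest median of the 29 lists. Of 26 tested, 19 were called lower (73.1%) and 0 higher, beside 21.7% and 20.6% of all genes. The median was -1.55, or -1.49 with Ifi44, which had 0 counts after CD40L, put at its bound. Ifi44 lost its call without FO_KO replicate 2 (adjusted p = 0.060), and Fosb, of the immediate early list, without FO_KO replicate 1 (adjusted p = 0.055). Irf7 went from 35.5, 52.7 and 26.7 CPM to 3.24, 1.75 and 2.17 CPM (log2 -3.99 ± 0.39, adjusted p = 2.4e-06), Ifit3 from 30.3, 51.1 and 39.9 CPM to 1.72, 0.318 and 1.12 CPM (log2 -5.22 ± 0.57), and Irf1 from 142, 138 and 146 CPM to 44.9, 50.5 and 44.9 CPM (log2 -1.60 ± 0.10). Myeloid, T and NK cells express these genes as well, their markers fell in the same libraries, and their part was not tested. Immediate early genes were also lower in the main, 12 of 20 tested (60%) against 3 higher (15%). Their median was -1.0, or -0.99 with Fosb at its bound. Fos had 78, 112 and 65 counts before and 1, 0 and 3 after (ratio before to after 64.0, 95% counting interval 24.7 to 237), Zfp36, which destabilises cytokine messages, fell from 834, 904 and 756 CPM to 152, 182 and 181 CPM (log2 -2.28 ± 0.11), and Egr1 fell by 1.44 ± 0.24. Junb rose from 1.65, 1.46 and 1.08 CPM to 3.51, 5.25 and 3.72 CPM (log2 1.57 ± 0.40). Of 14 Toll-like receptors and partners 6 fell (42.9%, against 21.7% of all genes), among them Tlr4 (log2 -2.41 ± 0.25) and Tlr7 (-1.46 ± 0.32). Another 2 were called higher (14.3%, against 20.6%). The number called higher dropped to 0 or 1 without FO_KO replicate 1 or 3 or any 1 of the CD40L_KO libraries. Monocytes and macrophages also express Toll-like receptors and immediate early genes, their summed markers fell from 134 to 287 TPM to 21.5 to 40.8 TPM in the same libraries, and their part was not tested. In the MS4A family 2 of 9 rose (22.2%, near the 20.6% of all genes) and 3 fell (33.3%, against 21.7%). Ms4a6c rose from 29.5, 26.2 and 30.5 CPM to 553, 587 and 539 CPM (log2 4.28 ± 0.13, adjusted p = 1.5e-10). Ms4a7 rose as well, but its call was lost without FO_KO replicate 1 or 2 or CD40L_KO replicate 1 (adjusted p between 0.061 and 0.13). Ms4a1 (CD20) was at log2 0.11 ± 0.07 (adjusted p = 0.20).

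Beyond the lists, the largest rises among protein-coding genes with a mean of at least 5 TPM and no overlap between the groups included Adgrg1, an adhesion receptor (0.375, 1.08 and 0.718 CPM before, 49.9, 52.8 and 67.6 CPM after, log2 6.25 ± 0.42), Ankrd33b (5.58 ± 0.44), Specc1 (4.39 ± 0.31), Basp1 (4.33 ± 0.33), Melk, a kinase of dividing cells (4.30 ± 0.47), F9 (4.21 ± 0.47) and Mreg (4.07 ± 0.19). The largest falls by the same rule included those of 4 globin genes, the macrophage genes C1qb and Fcna, Wfdc17, Fcgrt and the histone gene Hist1h4n, and the part of macrophages and erythroid cells in them was not tested. Fcna had 222, 155 and 128 counts before and 0 in every library after CD40L, at least 56.5-fold lower.

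The response was then set against that of WT cells, to ask whether any of it depended on endophilin A2. No gene of 14460 was called in edgeR's test of the difference between the responses, and 1278 (8.84%) had an unadjusted p under 0.05. DESeq2 called 30 genes on the same counts. Within the lists the 5 lowest unadjusted p-values belonged to Abcg1, Sh3gl1, Irf1, Srebf2 and Msmo1. Abcg1 had the lower value in knockout cells, where the difference was not called, with CD40L_WT at 14.1, 11.7 and 9.04 CPM (KO minus WT -1.23 ± 0.23 on the log2 scale, edgeR adjusted p = 0.31). Irf1 likewise had the more negative response (-0.70 ± 0.14, edgeR adjusted p = 0.31). Its untreated libraries were at 142, 138 and 146 CPM in FO_KO and 94.9, 99.7 and 90.4 CPM in FO_WT, whereas the treated ones overlapped, at 44.9, 50.5 and 44.9 CPM in CD40L_KO and 55.3, 49.2 and 47.8 CPM in CD40L_WT. Srebf2 was at 68.1, 62.4 and 51.7 CPM in FO_WT and 90.2, 98.5 and 72.7 CPM in CD40L_WT, and its fitted response was the larger in knockout cells (1.02 ± 0.21, edgeR adjusted p = 0.32). Msmo1 showed the same (0.76 ± 0.17, edgeR adjusted p = 0.45).

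Of these 5 genes 3 belong to the cholesterol list, in which the knockout value lay above the WT value in 29 of 32 members and below it in 3, Abcg1 among the latter. The summed level of the list was 634 to 715 TPM in FO_KO and 649 to 808 TPM in FO_WT, and reached 2430, 1883 and 2437 TPM in CD40L_KO against 1324, 1914 and 2032 TPM in CD40L_WT. The treated groups overlapped through CD40L_KO replicate 2. Of the 32 members 8 had an unadjusted p under 0.05, against 8.84% of all genes, and 0 passed after adjustment. DESeq2 called 3 of them, and edgeR without a count filter 6. With any 1 of the 12 libraries left out, between 27 and 29 members lay on the higher side, and without FO_KO replicate 1 the number with an unadjusted p under 0.05 was 5. Members of a list were read from the same 12 libraries. Such counts, here and in the growth lists below, are therefore not counts of independent observations. Over all genes tested, the signed difference had a median of 0.01. By size, whatever the sign, 60.8% of them had the smaller response in knockout cells, a measure unlike the signed counts given here.

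**Figure D4:**
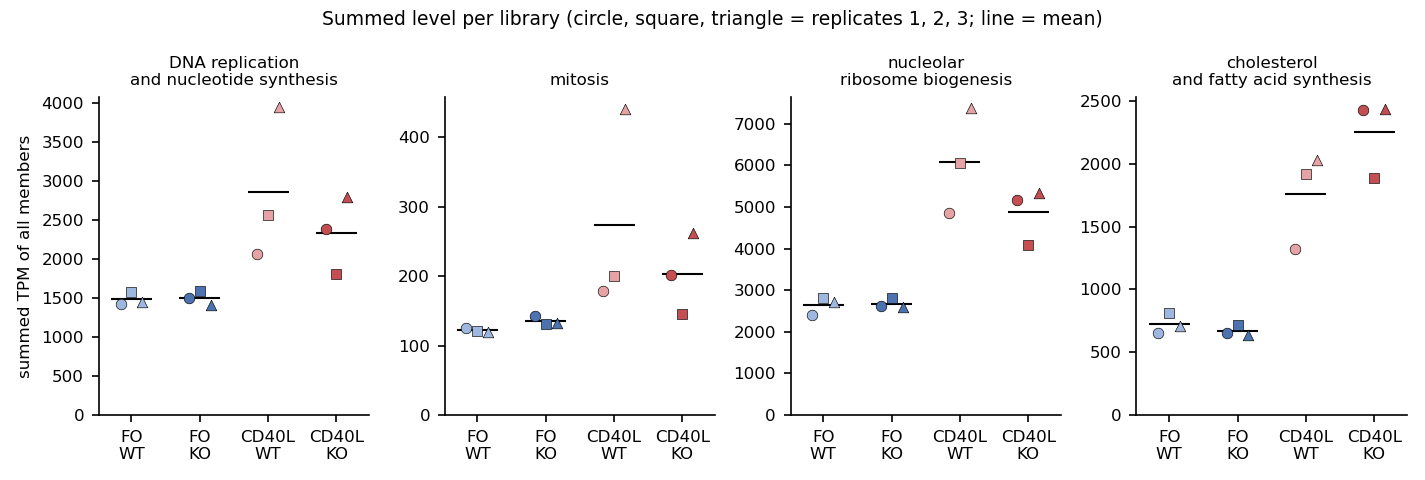
Summed TPM of all members of 4 gene lists in each of the 12 follicular libraries, with group means as lines. The untreated groups lie together, CD40L_WT replicate 3 stands highest for replication, mitosis and nucleolar genes, and CD40L_KO replicate 2 stands lowest of the treated knockout libraries in every panel.

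Growth genes leaned the other way. The median response was 0.96 in knockout and 1.43 in WT cells for replication genes, and 0.93 against 1.73 for mitotic genes, of which 22 were called higher in WT cells. This difference depended on 1 library. CD40L_WT replicate 3 had a summed mitotic level of 441 TPM against 178 and 200 TPM in the other WT libraries and 202, 145 and 262 TPM in CD40L_KO, and without it the WT medians were 1.05 for replication and 0.98 for mitosis, with 18 of 30 mitotic genes lower in knockout cells and 12 higher. Nucleolar genes had medians of 0.84 and 1.33, and 1.21 for WT cells without that library. For ribosomal protein genes the knockout value lay below the WT value in 81 of 82 members, with medians of 0.34 and 0.69, and 61 had an unadjusted p under 0.05 although 0 passed after adjustment. Their summed level differed before treatment, at 138434, 129733 and 141524 TPM in FO_KO and 116393, 118055 and 127340 TPM in FO_WT, and was between 149376 and 161044 TPM in all 6 treated libraries. The number with an unadjusted p under 0.05 was between 26 and 68 when 1 library was left out, and under 40 without FO_WT replicate 1 or 2, FO_KO replicate 3, CD40L_WT replicate 1 or CD40L_KO replicate 3.

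**Figure D5:**
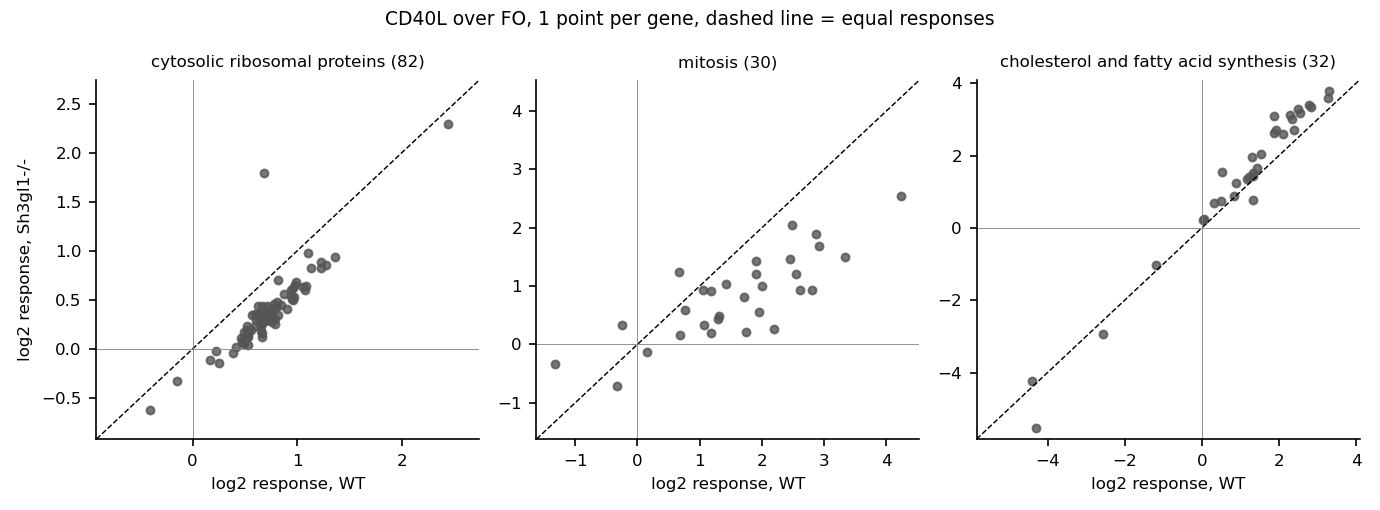
Log2 response to CD40L of each tested member of 3 gene lists in WT (horizontal) and Sh3gl1-/- (vertical) follicular B cells, with a dashed line of equal responses. Ribosomal protein genes lie below the line in 81 of 82 cases and mitotic genes in 27 of 30, while 29 of 32 cholesterol and fatty acid synthesis genes lie above it; 0 single differences passed the adjusted threshold.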

How the data were processed

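Polyadenylated RNA from sorted mouse B cells was sequenced. The deposited table gave, for 51912 genes in 18 libraries, expected counts, TPM and FPKM. Per the labels and the submitters' processing notes, the authors trimmed reads with cutadapt 1.9.1, aligned them to GRCm38 with STAR 2.5.2a and estimated gene-level expected counts, TPM and FPKM (not used here) with RSEM 1.3.0, whereas the study's methods name other tools and another library kit. The strand setting of the counting was not given in the sources used here. The labels give 14 h of CD40L, and the study's text gives other durations. Expected counts were rounded to whole numbers (10.3 to 11.6% of values were not whole).

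Counts of the 12 follicular libraries were fitted with edgeR 4.0.16 in R 4.3.3 (filterByExpr, TMM, quasi-likelihood test, 1 coefficient per group), with the knockout response, the wild-type response and their difference as contrasts and Benjamini-Hochberg adjustment over 14460 genes at 0.05. Summed TPM, which corrects for length, was used for levels over lists. Genes without counts in a group were given a bound against a floor of 3 counts per library. Such bounds and the 95% intervals of count ratios cover counting error only. The fit was tested on simulated data. Alternatives used DESeq2 1.42.0, limma 3.58.1, other filters, scaling, libraries and blocks, and each library left out.

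Named genes were the 3 markers of the response, Sh3gl1, the 10 largest changes in each direction among protein-coding genes with a mean of at least 5 TPM and no overlap between groups, up to 4 members with the largest changes per list and direction, members with a described role, and the 5 members with the lowest p for the difference from wild type. Members and lists were chosen with earlier results of these data known. The labels do not say whether FO and CD40L libraries of the same number came from 1 mouse. Promoters came from RefSeq (GRCm38.p6). Some members that this rule names are not reported here.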

Additional observations from a re-analysis of the deposited data

Results flagged for a closer look

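Rel, which encodes the NF-kB subunit c-Rel, was flagged because its libraries moved in opposite directions in the 2 genotypes. It was at 232, 257 and 239 CPM in FO_KO and 267, 261 and 298 CPM in CD40L_KO, above all FO_KO libraries. It was at 289, 260 and 269 CPM in FO_WT and 222, 244 and 197 CPM in CD40L_WT, below all FO_WT libraries. The knockout response (log2 0.18 ± 0.10) was not called and the wild-type response (log2 -0.31 ± 0.10) was, and their difference of 0.49 ± 0.14 did not pass (edgeR adjusted p = 0.46). Rel was not alone in this pattern. Tnfrsf13b, of the receptor list, went from 373, 386 and 348 CPM in FO_KO to 444, 396 and 390 CPM in CD40L_KO. In WT cells it went from 505, 446 and 381 CPM to 248, 365 and 255 CPM (KO minus WT 0.77 ± 0.20, edgeR adjusted p = 0.46). Across all genes, the knockout libraries did not overlap in 25.6% of cases with CD40L higher. The share of genes with opposite moves in the 2 genotypes was not counted.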

How the results depend on the processing

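The number of genes called in the CD40L response of knockout cells (6130) was between 5354 and 6624 under the DESeq2, scaling, count filter, limma, library choice and replicate block alternatives, and between 5080 and 5973 when 1 knockout library was left out. Tested against a 2-fold change, 1368 genes were called. For the difference between knockout and wild-type responses (0 called), DESeq2 called 30 genes, edgeR without the count filter 208, and the fits that left out 1 library between 0 and 1, the 1 being without CD40L_WT replicate 2. With no gene called, these fits say little about stability.

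The replicate numbers were not taken to pair the libraries. The deviations of same-numbered knockout libraries from their group means correlated with r = 0.134, 0.0895 and 0.0349 across genes, and the WT pairs with r = 0.158, 0.149 and 0.243. In both genotypes each library correlated best with its own number, a hint from the data and not from the design. With a replicate block within genotype 5869 genes were called, and 0 for the difference. In the 6 knockout libraries alone, 6007 were called without and 5354 with the block.

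Among the genes named, the sign of 2 that were not called changed with the setting, and the cause was not tested. Cyld (log2 -0.07) was between -0.09 and 0.02 and Nfkbid (log2 0.04) between -0.11 and 0.21 when 1 library was left out, and Nfkbid was at -0.07 with limma on log2(TPM + 1). Genes held at a few counts, among them Il10, Cxcl10 and Prdm1, are limited by depth.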

Other observations

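In further gene families, chosen after their values were seen, the calls lay in 1 direction, and the members that did not pass are not counted in it. All 7 genes of the CCT chaperonin, which folds actin and tubulin, were called higher in CD40L_KO (median 1.16), as were 17 of 20 cytosolic aminoacyl-tRNA synthetases (median 0.76) and 60 of 78 mitochondrial ribosomal proteins (median 0.49), with 0 lower in each. All 8 GIMAP GTPases, which lymphocytes express, were called lower (median -1.21), as were 5 of 13 messenger RNAs encoded by mitochondrial DNA (median -0.53). Of 65 histone genes only 22 were tested, and 13 of these were called lower (median -1.63). The libraries held polyadenylated RNA, and the part of that selection in the histone values was not tested. Of all genes, 20.6% were called higher and 21.7% lower. T cells express GIMAP genes as well, their markers fell in the same libraries, and their part was not tested.

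The lowest p-values of the response, also singled out after their values were seen, included on the higher side those of Ms4a6c, of Syngr2, a vesicle protein (log2 3.21), and of Hmgn3, a nucleosome-binding protein (log2 3.01). On the lower side they included those of Acp5, an acid phosphatase (log2 -4.56), and of Cyp4f18, which breaks down leukotrienes (log2 -4.15). The part of other cell types in these falls was not tested.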
